A study of Homo sapiens with 4 samples.

Results

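The nuclear genes of the respiratory chain were followed in SCC13 cells, a human line of cutaneous squamous cell carcinoma, after knockdown of CELF2, a protein that binds mRNAs and affects how they are spliced, translated and degraded. Members were chosen by name from the deposited gene table: subunit symbols of complex I (NDUFA, NDUFB, NDUFC, NDUFS and NDUFV with a digit), complex II (SDHA to SDHD), complex III (UQCR names and CYC1), complex IV (COX4 to COX8) and complex V (ATP5). Of 242 matching names among 60617 genes, 149 ending in P and digits and 3 antisense or divergent transcripts were left out, which gave 90 members. They comprised 39 genes of complex I, 4 of complex II, 10 of complex III, 17 of complex IV and 20 of complex V. The rule reads names only.

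PolyA RNA was sequenced from 2 libraries of cells infected with a lentivirus expressing an shRNA against CELF2 (CELF2 knockdown) and 2 libraries of cells infected with one expressing a scrambled shRNA (control shRNA). All 4 libraries came from the same line, whose genotype is labelled WT, grown in the same medium, CnT-07. The labels do not state separate cultures, so the p-values reflect the spread of these libraries alone, and that spread may be technical. The sources used here do not say whether both knockdown libraries carried the same shRNA.

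The respiratory chain passes electrons from NADH (complex I) and succinate (complex II) through ubiquinone to complex III, through cytochrome c to complex IV, and on to oxygen. Complexes I, III and IV pump protons across the inner mitochondrial membrane, and the ATP synthase, complex V, lets them flow back to make ATP. Most subunits are encoded in the nucleus and imported, while a few core subunits are encoded by mitochondrial DNA, so the complexes need both genomes. Keratinocytes and their carcinomas use both glycolysis and this chain.

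The knockdown libraries held 19928788 and 23177056 counts and the control libraries 27898889 and 17649090 counts. At these depths a floor of 3 counts corresponds to between 0.107 and 0.178 CPM (read counts scaled to library depth with TMM factors for composition), which covers counting error only. CELF2 itself had 0 and 0 counts in the knockdown libraries and 1 and 0 counts in the control libraries, so its own level cannot check the labels. All 8 keratinocyte markers were detected, with summed levels of 22540 and 14612 CPM in the knockdown libraries and 11104 and 16170 CPM in the control libraries. Fibroblast markers summed to 38.1 and 21.1 CPM in the knockdown libraries and 13.3 and 16.3 CPM in the control libraries, nearly all of it COL1A1, with DCN, LUM, COL1A2 and COL3A1 at 0 counts. Melanocyte markers summed to between 6.12 and 9.05 CPM with TYR and MLANA at 0, endothelial markers to 1.83 and 1.90 CPM in the knockdown libraries and 0.572 and 0.178 CPM in the control libraries, and immune markers to under 1 CPM with PTPRC and CD3E at 0. MKI67, a marker of cycling cells, was at 81.0 and 127 CPM in the knockdown libraries and 585 and 308 CPM in the control libraries; its part in the results below was not tested. In such bulk samples, fewer cells of a type and less RNA per cell cannot be told apart.

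Promoter windows describe the members outside the expression values. RefSeq windows (GRCh38.p14, 250 bases before to 50 bases after the gene start) were matched for 71 of the 90 members. Each was searched on both strands for GCGCA, any base and then GCGC, letters of the kind bound by NRF1, for CCGGAAG, of the kind bound by ETS factors such as GABP, and for GGGCGG, the GC box. The NRF1 letters occurred in 17 of the 71 member windows (23.9%) and in 1716 of 27305 RefSeq windows (6.28%). The 27305 windows were not limited to genes tested here. The ETS letters occurred in 20 member windows (28.2%) against 10.7% of all windows, and the GC box in 43 (60.6%) against 44.6%. By complex, the NRF1 letters occurred in 6 of 33 windows for complex I, 2 of 3 for complex II, 4 of 7 for complex III, 1 of 14 for complex IV and 4 of 14 for complex V. A match is a description of letters and does not show a bound site.

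The 4 sequences that follow are from NDUFA4L2, the member with the largest fold change, and 3 ubiquitous subunits. The window of NDUFA4L2 held none of the 3 motifs, and each of the others held at least 1. NDUFA4L2 was picked for its fold change and the other 3 for their letters, so the 4 do not relate motifs to fold changes. Windows of ubiquitous subunits such as NDUFA5 and NDUFV1 also held none of the motifs. That of COX6B2, which was also higher in the knockdown libraries, held 1 GC box. All 4 sequences lie outside annotated exons. Capitals mark motif matches, and each sequence reads 5′ to 3′ on the strand of the gene and stops before the first exon base annotated in GENCODE v29. NDUFA4L2 is chr12:57240763-57241012 on the minus strand, NDUFB4 is chr3:120596086-120596308 on the plus strand with 2 NRF1 matches, NDUFB7 is chr19:14572067-14572316 on the minus strand with 1 GC box and 1 ETS match, and COX5B is chr2:97645812-97646039 on the plus strand with 4 GC boxes, the last of which adjoins 1 ETS match.
NDUFA4L2: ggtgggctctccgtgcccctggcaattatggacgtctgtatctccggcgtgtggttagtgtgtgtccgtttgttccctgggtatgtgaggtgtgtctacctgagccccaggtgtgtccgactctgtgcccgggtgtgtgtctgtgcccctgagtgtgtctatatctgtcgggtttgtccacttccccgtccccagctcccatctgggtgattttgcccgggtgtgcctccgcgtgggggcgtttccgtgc
NDUFB4: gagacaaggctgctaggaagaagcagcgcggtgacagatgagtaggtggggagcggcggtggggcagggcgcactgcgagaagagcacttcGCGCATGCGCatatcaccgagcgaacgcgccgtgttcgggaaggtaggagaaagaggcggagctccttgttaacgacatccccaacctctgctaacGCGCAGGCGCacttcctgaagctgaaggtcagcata
NDUFB7: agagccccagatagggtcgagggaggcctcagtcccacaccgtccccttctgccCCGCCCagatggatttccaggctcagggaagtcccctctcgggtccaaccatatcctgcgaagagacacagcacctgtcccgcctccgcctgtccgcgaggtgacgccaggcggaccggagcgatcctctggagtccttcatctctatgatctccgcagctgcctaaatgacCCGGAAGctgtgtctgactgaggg
COX5B: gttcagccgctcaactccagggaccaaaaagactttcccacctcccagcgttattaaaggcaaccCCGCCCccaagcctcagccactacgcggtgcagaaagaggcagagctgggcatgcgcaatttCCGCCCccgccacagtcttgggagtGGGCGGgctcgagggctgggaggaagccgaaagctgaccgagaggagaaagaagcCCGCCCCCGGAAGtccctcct

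Transcripts for the nuclear respiratory chain took up a very similar part of the library in both groups. The 90 members summed to 10082 and 10450 CPM in the knockdown libraries and to 10544 and 11034 CPM in the control libraries, a ratio of 0.952. As raw shares they held 1.03% and 1.07% of the counts in the knockdown libraries and 1.06% and 1.05% in the control libraries. Both CPM sums were lower in the knockdown libraries, by less than 1.5-fold, while the raw shares overlapped.

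Of the 90 members, 82 had enough counts to be tested. None of the 82 passed edgeR's quasi-likelihood test at a Benjamini-Hochberg adjusted p of 0.05 (smallest adjusted p 0.0688), against 133 of 15170 tested genes, or 0.877%. At an unadjusted p below 0.05 there were 6 members (7.32%), against 22.1% of all tested genes. A difference of at least 1.5-fold occurred for 4 members (4.88%), against 27.6%. NDUFA4L2, in both counts and with the smallest adjusted p, had enough counts to be tested only through its knockdown libraries, where it was high. DESeq2 called 2 members, COX6B2 and ATP5PO, against 8.98% of all genes. The 95% interval of the fold change lay wholly within 1.5-fold in either direction for 47 members (57.3%), against 15.1% of all genes. The members were also measured more tightly, with a median standard error of 0.17 on the log2 scale against 0.25 over all tested genes.

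Most of the small differences had the same sign. The log2 fold change, knockdown over control, was below 0 for 60 of the 82 tested members (73.2%), against 50.3% of all tested genes, with a median of -0.091 against -0.0036. The 2 knockdown libraries both lay below the 2 control libraries for 35 members (42.7%), against 27.8% of all genes. Both lay above for 7 (8.54%), against 27.1%, and the 7 include NDUFA4L2. In the other 40 members the groups overlapped, so that 51.2% of the tested members were separated in either direction, against 54.9% of all tested genes. Without control replicate 2 the count below 0 was 48 and the median -0.042, and without control replicate 1 they were 67 and -0.119. Leaving out UQCRH, UQCRHL and the members whose reference transcript overlaps exons of another gene left 45 members with a median of -0.070. Members with pseudogene-named copies, such as SDHA, were kept.

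**Figure D1:**
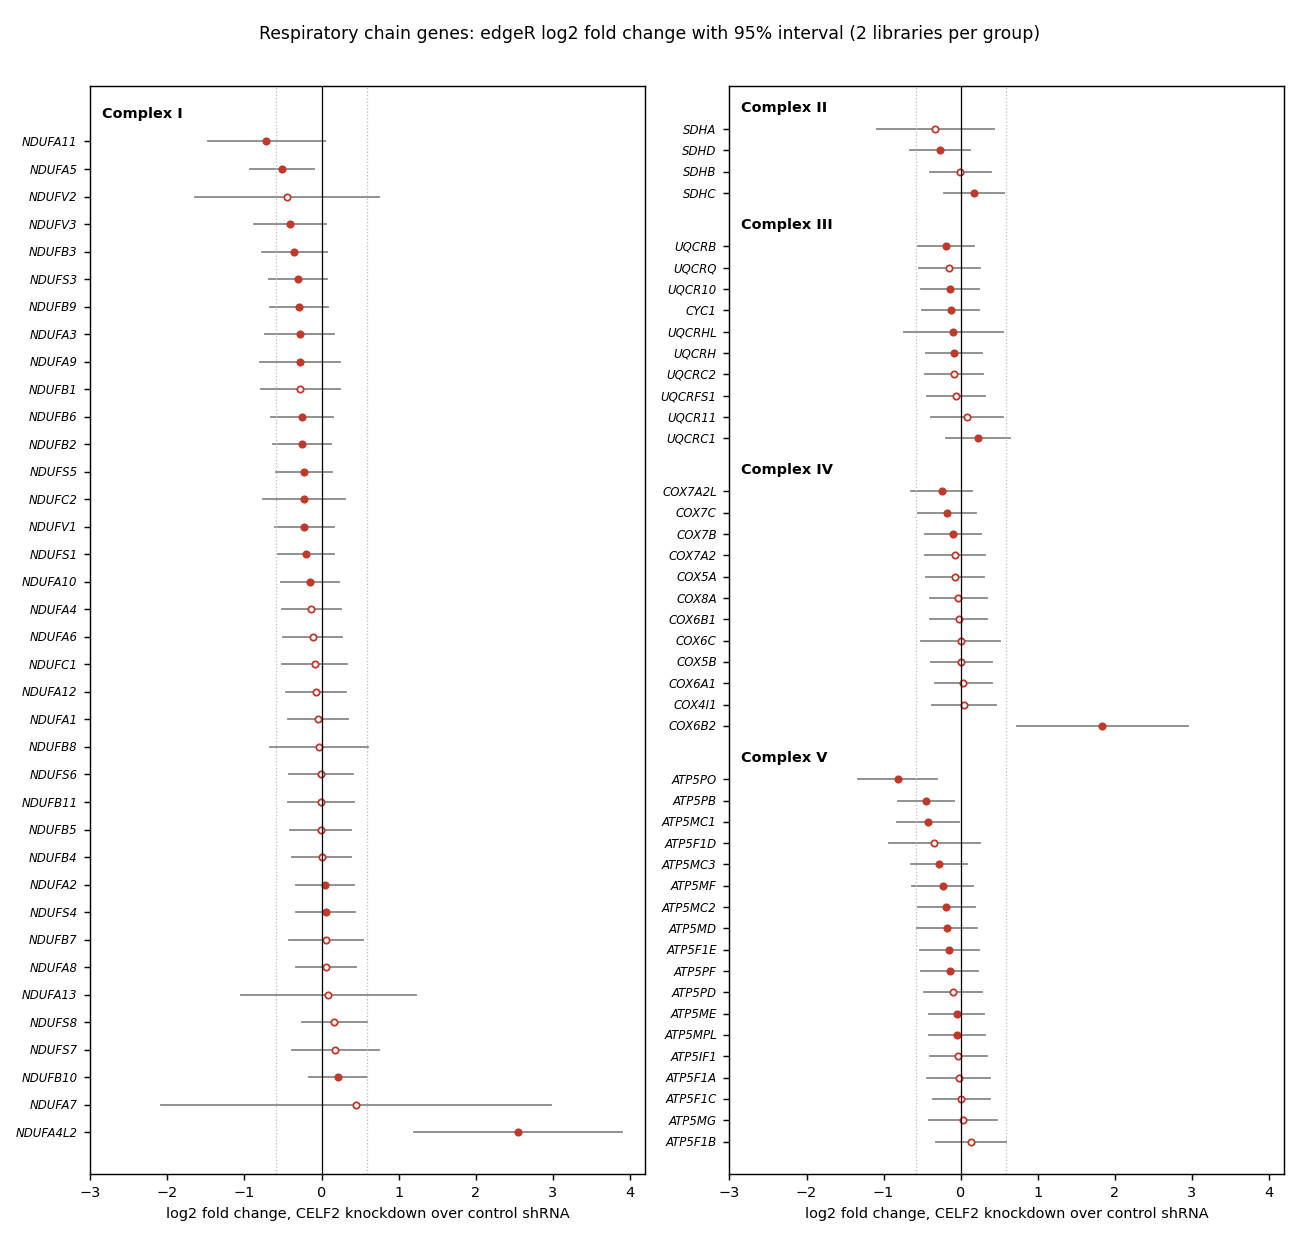
Log2 fold change of 81 tested members, CELF2 knockdown over control shRNA, on the x axis with its 95% interval, by complex; filled points mark members whose 2 knockdown and 2 control libraries do not overlap, and dotted lines mark 1.5-fold. Most points sit between the dotted lines, with NDUFA4L2 at 2.55 and COX6B2 at 1.84 far to the right and ATP5PO at -0.82 the lowest.

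Complex I, the NADH dehydrogenase, summed to 2650 and 2606 CPM over its members in the knockdown libraries and to 2804 and 2938 CPM in the control libraries, a ratio of 0.915. Both knockdown sums were below both control sums. Of its 38 tested members, 0 passed the threshold, against 0.877% of all tested genes. An unadjusted p below 0.05 occurred for 2, NDUFA4L2 and NDUFA5 (5.26%, against 22.1%). NDUFA4L2 had enough counts only through its knockdown libraries, so its p is description and not support for a difference. The log2 fold change was below 0 for 27 (71.1%, against 50.3%), with a median of -0.10. The groups did not overlap for 15 members lower in the knockdown libraries (39.5%, against 27.8% of all tested genes) and 4 higher (10.5%, against 27.1%). NDUFA4L2 is among the 4. All these values count NDUFA4 and NDUFA4L2 in complex I by name, although NDUFA4 is now known as a subunit of complex IV.

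The N module at the tip of the matrix arm oxidises NADH. Its flavoprotein NDUFV1, which binds the FMN cofactor, was at 190 and 164 CPM in the knockdown libraries and 209 and 203 CPM in the control libraries (log2 fold change -0.22 ± 0.16, SE; edgeR adjusted p 0.470). NDUFS1, which carries iron-sulfur clusters, was at 121 and 130 CPM in the knockdown libraries and 145 and 144 CPM in the control libraries (-0.20 ± 0.16; edgeR adjusted p 0.495). For both genes the knockdown libraries were the lower ones with no overlap, by less than 1.5-fold. NDUFV2, the other flavoprotein subunit, was measured at only 0.592 and 0.926 CPM in the knockdown libraries and 1.18 and 0.891 CPM in the control libraries, and the groups overlapped. Over the 8 tested N module genes the median log2 fold change was -0.14.

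The Q module passes the electrons to ubiquinone. NDUFA5, one of its accessory subunits, lies at GRCh38 chromosome 7, 123536997 to 123558255 (the build of every position given here), and had 36.3 and 33.2 CPM in the knockdown libraries and 52.5 and 46.6 CPM in the control libraries. Both knockdown values were below both control values, with a log2 fold change of -0.51 ± 0.18 (SE) that missed the threshold (edgeR quasi-likelihood, adjusted p 0.157). NDUFS3, a core subunit of the same arm, was at 73.1 and 79.5 CPM in the knockdown libraries and 91.5 and 97.6 CPM in the control libraries, again with no overlap (-0.31 ± 0.16; edgeR adjusted p 0.310). Not every core subunit shared that order. NDUFS7 and NDUFS8, which carry the last iron-sulfur clusters before ubiquinone, had log2 fold changes of 0.18 ± 0.24 and 0.17 ± 0.18 with overlapping groups. With the GC correction these turned to -0.066 and -0.033. NDUFS7 also turned to -0.017 without knockdown replicate 1 and to -0.090 without control replicate 1. The median of the 8 tested Q module genes was -0.079.

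The membrane arm holds the proton channels, whose core subunits are mitochondrially encoded and are surrounded by nuclear accessory subunits. NDUFS5, the complex I member with the most transcript per kilobase (422 CPM per kilobase of its reference transcript), was at 206 and 217 CPM in the knockdown libraries and 241 and 255 CPM in the control libraries, with no overlap (log2 fold change -0.23 ± 0.16; edgeR adjusted p 0.438). NDUFA11, an accessory subunit of the proximal arm, had the lowest log2 fold change of the complex. It was at 11.6 and 6.61 CPM in the knockdown libraries and 13.4 and 16.6 CPM in the control libraries (-0.72 ± 0.33; edgeR adjusted p 0.251). The control libraries were both higher, but the 2 knockdown libraries lay further apart than the nearest libraries of the groups. Medians were -0.14 over the 9 proximal and -0.037 over the 11 distal membrane arm genes.

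Complex II, succinate dehydrogenase, links the citric acid cycle to the chain and has only nuclear subunits. Its 4 genes summed to 323 and 343 CPM in the knockdown libraries and 334 and 351 CPM in the control libraries, and the groups overlapped. The flavoprotein SDHA (chromosome 5, 218241 to 256700) was at 27.8 and 30.3 CPM in the knockdown libraries and 23.7 and 49.5 CPM in the control libraries. The 2 control libraries bracketed the knockdown libraries, and the log2 fold change of -0.33 ± 0.33 turned to 0.31 without control replicate 2. SDHB, the iron-sulfur subunit and the most abundant of the complex per kilobase, was at 127 and 151 CPM in the knockdown libraries and 133 and 145 CPM in the control libraries (log2 fold change -0.01 ± 0.17). The membrane anchors differed in order: SDHC was at 108 and 97.9 CPM in the knockdown libraries and 96.6 and 85.7 CPM in the control libraries, and SDHD at 61.5 and 64.1 CPM in the knockdown libraries and 80.9 and 70.6 CPM in the control libraries. SDHC was thus higher in both knockdown libraries and SDHD lower, each without overlap and each short of the threshold (edgeR adjusted p 0.585 for SDHC and 0.390 for SDHD).

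Complex III, the cytochrome bc1 complex, summed to 1565 and 1574 CPM in the knockdown libraries and 1553 and 1649 CPM in the control libraries, with overlap. Of its 10 members, all tested, 0 passed the threshold, 0 had an unadjusted p below 0.05, and the intervals of 8 lay within 1.5-fold. Its redox subunits varied little: cytochrome c1, CYC1, had a log2 fold change of -0.13 ± 0.16 and the Rieske protein, UQCRFS1, one of -0.06 ± 0.16. The core proteins stood on either side of 0. UQCRC1 (chromosome 3, 48599002 to 48610976) was at 463 and 406 CPM in the knockdown libraries and 343 and 400 CPM in the control libraries, both knockdown values being above both control values (0.23 ± 0.18; edgeR adjusted p 0.493), while UQCRC2 overlapped between groups (-0.09 ± 0.16). Among the small subunits UQCRB was at 183 and 191 CPM in the knockdown libraries and 208 and 217 CPM in the control libraries (-0.19 ± 0.16), and UQCR10 was at 81.6 and 82.5 CPM in the knockdown libraries and 94.9 and 85.9 CPM in the control libraries (-0.14 ± 0.16). Both were lower in the 2 knockdown libraries by less than 1.5-fold.

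Complex IV, cytochrome c oxidase, had the median log2 fold change closest to 0 of the 5 complexes, -0.029 over 12 tested genes (0.028 without control replicate 2). It summed to 1696 and 1698 CPM in the knockdown libraries and 1663 and 1815 CPM in the control libraries. The knockdown libraries lay inside the control range. NDUFA4 is left out of these values, being counted in complex I by its name. The 11 tested ubiquitous subunits had log2 fold changes between -0.25 and 0.04, with a median of -0.033. COX4I1, a regulatory subunit and the most abundant of the complex per kilobase (460 CPM per kilobase), was at 357 and 312 CPM in the knockdown libraries and 296 and 353 CPM in the control libraries (0.04 ± 0.18), the groups overlapping. COX5A and COX5B, nuclear subunits on the matrix side of the enzyme, had log2 fold changes of -0.07 ± 0.16 and 0.01 ± 0.17. The lowest was COX7A2L, a relative of COX7A2 that takes part in joining complex IV to complex III in supercomplexes. It was at 57.4 and 65.7 CPM in the knockdown libraries and 69.5 and 76.8 CPM in the control libraries, lower in both knockdown libraries (-0.25 ± 0.17; edgeR adjusted p 0.440). COX7C followed, at 272 and 249 CPM in the knockdown libraries and 282 and 307 CPM in the control libraries (-0.18 ± 0.16).

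Complex V, the ATP synthase, supplied the most abundant members and summed to 3848 and 4229 CPM in the knockdown libraries and 4189 and 4281 CPM in the control libraries, with overlap. Of its 18 tested genes 15 had a log2 fold change below 0 (83.3%, against 50.3% of all tested genes), with a median of -0.14. Of the 18, 11 were lower in both knockdown libraries without overlap (61.1%, against 27.8%) and 0 were higher in both (against 27.1%). Its parts differed: the medians were -0.023 for the 5 genes of the catalytic F1 head and -0.053 for the 5 tested other membrane subunits. They were -0.28 for the 3 genes of the c ring and -0.30 for the 4 genes of the peripheral stalk. The stalk median includes ATP5PO, at -0.82, whose counts are uncertain. These medians describe the parts, and the difference between them was not tested.

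In the F1 head, the catalytic beta subunit ATP5F1B (chromosome 12, 56638175 to 56646068) was the most abundant member of all per kilobase, at a mean of 625 CPM per kilobase. It was at 1067 and 1342 CPM in the knockdown libraries and 1080 and 1110 CPM in the control libraries (log2 fold change 0.14 ± 0.19). The alpha subunit ATP5F1A was at 723 and 814 CPM in the knockdown libraries and 760 and 802 CPM in the control libraries. For both, 1 knockdown library lay below the control libraries and 1 above. The central stalk subunit ATP5F1C and the inhibitor ATP5IF1, which blocks ATP hydrolysis by the enzyme, had log2 fold changes of 0.01 ± 0.16 and -0.03 ± 0.16.

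The peripheral stalk holds the head still against the turning rotor. ATP5PO, its OSCP subunit that ties the stalk to the head (chromosome 21, 33903453 to 33915980), was at 17.6 and 13.5 CPM in the knockdown libraries and 28.2 and 26.6 CPM in the control libraries. Both knockdown libraries were well below both controls, and the log2 fold change of -0.82 ± 0.22 had an adjusted p of 0.0947 by edgeR's quasi-likelihood test and of 0.0328 by DESeq2. Most of its reference transcript is shared with another annotated gene, as described below, so its counts are uncertain. ATP5PB, the stalk's b subunit (chromosome 1, 111448864 to 111462773), shares no such stretch and was at 173 and 171 CPM in the knockdown libraries and 240 and 228 CPM in the control libraries. Its groups were also well separated, with a log2 fold change of -0.45 ± 0.16 (edgeR adjusted p 0.157). The remaining stalk genes, ATP5PF and ATP5PD, had values of -0.14 ± 0.16 and -0.10 ± 0.16.

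The c ring, the rotor that turns with the proton flow, is made of 1 mature protein encoded by 3 genes with different targeting sequences. ATP5MC1 was at 115 and 138 CPM in the knockdown libraries and 175 and 164 CPM in the control libraries (log2 fold change -0.42 ± 0.17; edgeR adjusted p 0.202). ATP5MC3 was at 272 and 275 CPM in the knockdown libraries and 330 and 334 CPM in the control libraries (-0.28 ± 0.16; edgeR adjusted p 0.341). ATP5MC2 was at 142 and 125 CPM in the knockdown libraries and 152 and 151 CPM in the control libraries (-0.18 ± 0.16; edgeR adjusted p 0.545). All 3 were lower in both knockdown libraries without overlap (against 27.8% of all tested genes), and none passed the threshold (against 0.877%). Per kilobase, ATP5MC3 gave the largest share of the c ring transcripts in every library, 47.7% and 46.7% in the knockdown libraries and 45.6% and 47.1% in the control libraries.

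**Figure D2:**
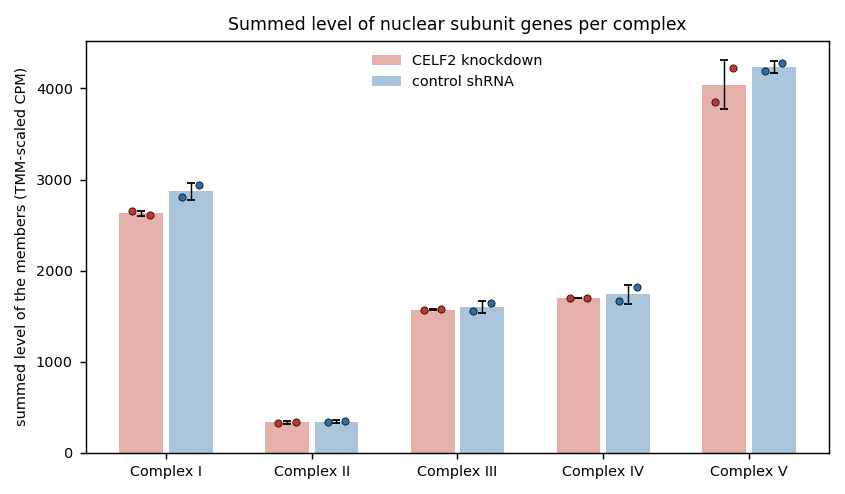
Summed level of the members of each complex on the y axis (TMM-scaled CPM), with bars for the mean of 2 libraries, error bars for the SD and points for single libraries. Complex I is the complex whose sums do not overlap (2650 and 2606 CPM in CELF2 knockdown libraries, 2804 and 2938 CPM in control shRNA libraries).

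The largest differences among the members were in COX6B2 and NDUFA4L2, low-abundance paralogues of different subunits that were higher in the knockdown libraries. COX6B2 (chromosome 19, 55349306 to 55354814) is a paralogue of the ubiquitous COX6B1 that is known mainly from testis. It was at 34.8 and 12.8 CPM (706 and 304 counts) in the knockdown libraries and at 8.08 and 5.11 CPM (226 and 86 counts) in the control libraries. Both knockdown libraries were higher than both controls, and the first knockdown library stood far above the second. The log2 fold change was 1.84 ± 0.48, with an adjusted p of 0.0879 by edgeR's quasi-likelihood test and 0.00188 by DESeq2, and it was 0.96 without knockdown replicate 1. COX6B1 itself was at 181 and 166 CPM in the knockdown libraries and 173 and 181 CPM in the control libraries (-0.03 ± 0.16). Per kilobase, COX6B2 made up 5.20% and 2.15% of the pair in the knockdown libraries and 1.31% and 0.80% in the control libraries, a small part in every library.

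NDUFA4L2 (chromosome 12, 57234903 to 57240715), known as a target of HIF1 that is induced by low oxygen, had 23 and 24 counts in the knockdown libraries and 5 and 3 counts in the control libraries. That is 1.14 and 1.01 CPM in the knockdown libraries and 0.179 and 0.178 CPM in the control libraries, so the replicates lay close together and the groups far apart at a low level. The ratio of the summed scaled counts was 5.98, with a 95% counting interval of 2.80 to 14.7, and the fitted log2 fold change was 2.55 ± 0.58 (edgeR adjusted p 0.0688). The counting interval leaves out the spread between libraries. The gene reached the count filter only through its knockdown libraries, the group where it is high. Its separation, interval and adjusted p are therefore given as description and not as support for a difference. Its paralogue NDUFA4 carries a complex I name but is now known as a subunit of complex IV, and was at 167 and 176 CPM in the knockdown libraries and 174 and 203 CPM in the control libraries (-0.13 ± 0.17). Per kilobase, NDUFA4L2 supplied 1.21% and 1.03% of the pair in the knockdown libraries and 0.186% and 0.159% in the control libraries.

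The other tissue-restricted forms were silent at these depths. COX4I2, COX6A2, COX7A1, COX7B2 and COX8C had 0 counts in all 4 libraries, which allows up to 0.148 and 0.126 CPM in the knockdown libraries and 0.107 and 0.178 CPM in the control libraries. Their ubiquitous counterparts COX4I1, COX6A1, COX7A2, COX7B and COX8A had log2 fold changes between -0.10 and 0.04. The COX7A set also held COX7A2L, described above, which gave 28.1% and 28.5% of its transcripts per kilobase in the knockdown libraries and 31.1% and 30.7% in the control libraries. UQCRHL, an intronless copy of UQCRH, made up between 0.913% and 0.991% of that pair per kilobase in the 4 libraries, and reads of both copies may be split between them, so its counts are uncertain. UQCRH, the complex III member with the most transcript per kilobase, was at 206 and 216 CPM in the knockdown libraries and 222 and 227 CPM in the control libraries (-0.09 ± 0.16).

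**Figure D3:**
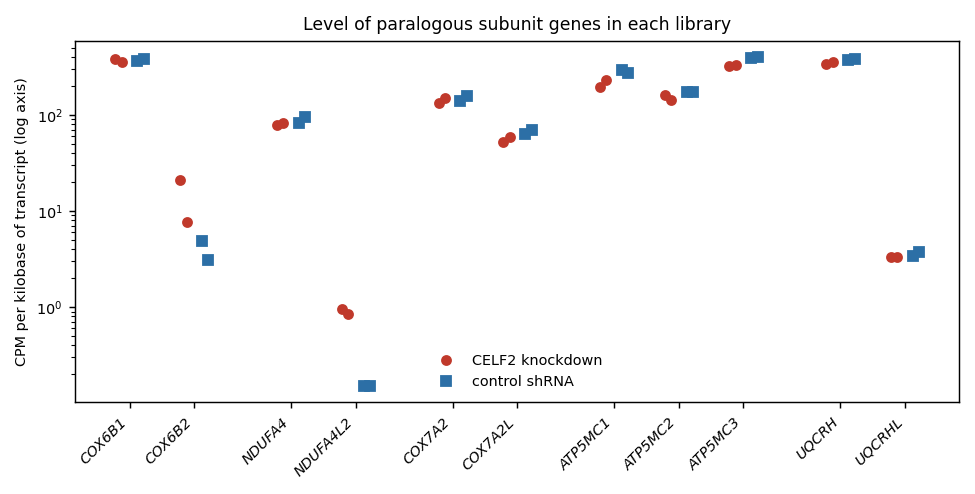
Level of paralogous subunit genes in each library on the y axis (CPM per kilobase of the reference transcript, log axis), with circles for CELF2 knockdown and squares for control shRNA libraries. COX6B2 and NDUFA4L2 lie far below their partners in every library and are higher in both knockdown libraries; the group means of the other genes differ by less than 1.5-fold.

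Several ubiquitous complex I and V subunits were listed at low levels, and those with the largest same-strand overlap of their reference transcript with another annotated gene were among them. ATP5ME, with 49.9% of its reference transcript overlapped on the opposite strand, was at 293 CPM per kilobase, a high level. In GENCODE v29, 82.9% of the reference transcript of NDUFV2 lies in exons of AP005263.1 on the same strand, and NDUFV2 was at a mean of 0.965 CPM per kilobase. The same measure was 75.9% for NDUFA7 (0.578 CPM per kilobase), 71.7% for NDUFB8 (16.0), 70.3% for ATP5PO (23.0) and 67.0% for NDUFA11 (22.4). These 5 tested members had a median of 16.0 CPM per kilobase, against 111 CPM per kilobase for the 67 tested members with no same-strand overlap. The partner genes had 0 counts in every library for 4 of the 5, and AP000311.1, the partner of ATP5PO, had 1 and 0 counts in the knockdown libraries and 0 and 2 counts in the control libraries. Smaller overlaps went with low and high levels alike: ATP5MF, at 46.2%, was at 217 CPM per kilobase, NDUFA13, at 44.1%, was at 1.23, and COX6B2, at 33.9%, was at 9.15. The sources used here do not say how reads shared between genes were treated, and the part of the overlap in these levels was not tested. For NDUFA7, with 0 counts in control replicate 2, the log2 fold change of 0.45 ± 1.08 turned to -0.50 without knockdown replicate 1 and to -0.34 without control replicate 2.

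**Figure D4:**
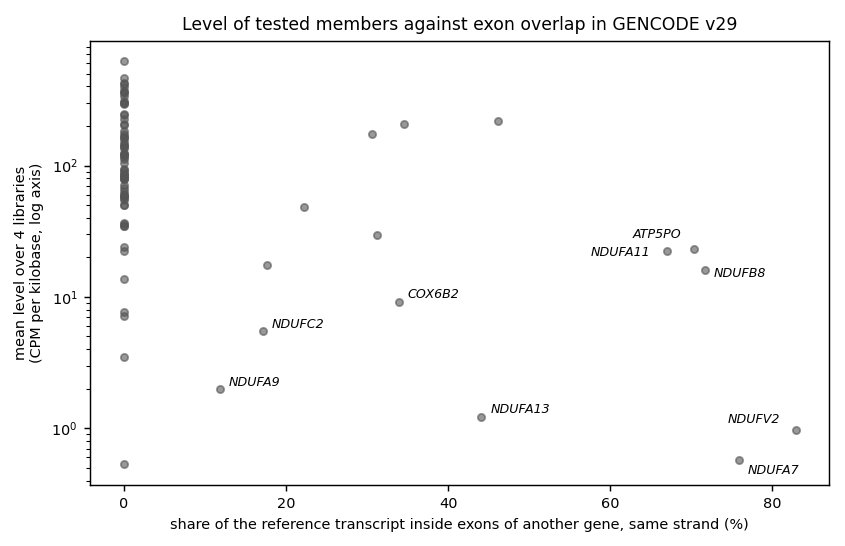
Mean level of each tested member over 4 libraries on the y axis (CPM per kilobase, log axis) against the percent of its reference transcript inside exons of another gene on the same strand. The 5 members above 60% overlap sit at or below 23.0 CPM per kilobase, under most members without overlap.

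The remaining 3 members not tested were the readthrough rows ATP5MF-PTCD1 and NDUFC2-KCTD14, at 0 counts in all libraries, and ATP5MGL, with 1 and 0 counts in the knockdown libraries and 0 and 1 counts in the control libraries.

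Genes around the chain were examined in 10 lists. Assembly factors build the complexes without staying in them. None of the 18 factors of complex I, 4 of complex II, 6 of complex III, 24 of complex IV and 3 of complex V passed the threshold in either direction, against 0.606% of all tested genes higher and 0.27% lower. Their median log2 fold changes were -0.17, 0.24, -0.28, -0.18 and 0.11 in that order of complexes. The complex V value was -0.025 without knockdown replicate 1 and -0.036 without knockdown replicate 2, and the complex II value ranged between 0.068 without control replicate 1 and 0.43 without control replicate 2. The complex III value was -0.17 without knockdown replicate 2. The factor with the smallest p was COX20, a chaperone of the protein encoded by MT-CO2, at 10.6 and 12.1 CPM in the knockdown libraries and 32.2 and 22.9 CPM in the control libraries (-1.28 ± 0.25; edgeR adjusted p 0.0576). Its knockdown libraries were both far below the controls. BCS1L, which inserts the Rieske protein into complex III, was at 33.0 and 38.5 CPM in the knockdown libraries and 61.5 and 56.9 CPM in the control libraries (-0.73 ± 0.18; edgeR adjusted p 0.0793). NDUFAF8, a complex I factor, was at 25.6 and 20.7 CPM in the knockdown libraries and 41.4 and 38.5 CPM in the control libraries (-0.79 ± 0.20; edgeR adjusted p 0.0818). Both were lower in the 2 knockdown libraries without overlap. Next by p were ACAD9 (-0.68 ± 0.19) and FOXRED1 (-0.52 ± 0.17) for complex I, LYRM7 (-0.61 ± 0.24) and UQCC3 (-0.37 ± 0.19) for complex III, and COA4 (-0.44 ± 0.17) and COA7 (-0.41 ± 0.20) for complex IV. For complex II the factor with the smallest p was SDHAF2, which helps to attach the flavin to SDHA (0.48 ± 0.26; edgeR adjusted p 0.321), and for complex V it was ATPAF1 (0.15; edgeR adjusted p 0.684).

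Coenzyme Q and cytochrome c carry electrons between the complexes. Of the 12 genes for them, 0 passed the threshold, 6 had an unadjusted p below 0.05 (against 22.1% of all tested genes), and 10 had a log2 fold change below 0 (83.3%, against 50.3%), with a median of -0.44. PDSS1, which starts the synthesis of the coenzyme Q side chain, was at 9.87 and 11.3 CPM in the knockdown libraries and 27.4 and 19.7 CPM in the control libraries (-1.16 ± 0.25; edgeR adjusted p 0.0650). COQ3 (-0.70 ± 0.20) and COQ2 (-0.76 ± 0.22), later enzymes of the same path, were also lower in both knockdown libraries. COQ8B, an atypical kinase of the same path, had the opposite sign, at 28.8 and 18.8 CPM in the knockdown libraries and 12.9 and 17.2 CPM in the control libraries (0.66 ± 0.28; edgeR adjusted p 0.221); it is named here after its values were seen. CYCS, cytochrome c, was at 170 and 201 CPM in the knockdown libraries and 322 and 255 CPM in the control libraries (-0.64 ± 0.19; edgeR adjusted p 0.113).

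The 13 subunits encoded by mitochondrial DNA had a median of -0.28, with 11 of them below 0 (84.6%, against 50.3% of all tested genes). The median was -0.54 without knockdown replicate 1, -0.14 without knockdown replicate 2, -0.46 without control replicate 1 and -0.16 without control replicate 2. MT-ND6, a complex I subunit and the only one encoded on the light strand, fell to 24.5 and 35.0 CPM in the knockdown libraries, against 138 and 87.7 CPM in the control libraries (log2 fold change -1.92 ± 0.28; edgeR adjusted p 0.0483). It was the 1 gene of the 13 past the threshold, against 0.877% of all tested genes. It was not past the threshold without knockdown replicate 2 or without control replicate 1. MT-ND6 overlaps transcripts of the opposite strand, and the sources used here name no strand setting, so its counts are uncertain. MT-ATP8 was at 104 and 83.6 CPM in the knockdown libraries and 149 and 167 CPM in the control libraries (-0.76 ± 0.18; edgeR adjusted p 0.0758). The most abundant subunits overlapped between groups, such as MT-CO1, at 9903 and 6420 CPM in the knockdown libraries and 9189 and 10660 CPM in the control libraries.

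Of 12 tested regulators of mitochondrial biogenesis, 0 passed the threshold, against 0.877% of all tested genes. An unadjusted p below 0.05 occurred for 4 (33.3%, against 22.1%), and a log2 fold change below 0 for 10 (83.3%, against 50.3%). Their median was -0.29, and -0.47 without knockdown replicate 2, -0.45 without control replicate 2 and -0.19 without knockdown replicate 1. PPRC1, a coactivator, was at 81.4 and 116 CPM in the knockdown libraries and 156 and 147 CPM in the control libraries (-0.62 ± 0.21; edgeR adjusted p 0.143). NRF1, a transcription factor for many nuclear respiratory genes, was at 16.4 and 19.2 CPM in the knockdown libraries and 32.0 and 23.5 CPM in the control libraries (-0.65 ± 0.23; edgeR adjusted p 0.164). GABPB1, a subunit of the ETS factor GABP, was at 14.6 and 15.0 CPM in the knockdown libraries and 24.3 and 19.9 CPM in the control libraries (-0.58 ± 0.22; edgeR adjusted p 0.177). All 3 were lower in both knockdown libraries and short of the threshold. PPARGC1A, a coactivator, had 1 and 0 counts in the knockdown libraries and 0 and 0 counts in the control libraries.

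The citric acid cycle and pyruvate dehydrogenase, which feed the chain, had a median of -0.016 over 18 genes. Of the 18, 0 passed the threshold, against 0.877% of all tested genes. CS (-0.52 ± 0.17) and FH (-0.45 ± 0.16), citrate synthase and fumarase, were lower in both knockdown libraries, and IDH2 (0.42 ± 0.19), the mitochondrial isocitrate dehydrogenase, was higher in both. Among 7 tested adenine nucleotide carriers, porins and uncoupling proteins, 0 passed the threshold (against 0.877%) and the median was -0.22. The carrier SLC25A4 was at 57.3 and 71.8 CPM in the knockdown libraries and 42.4 and 47.5 CPM in the control libraries (0.52 ± 0.19). Its paralogue SLC25A5 was at 471 and 540 CPM in the knockdown libraries and 641 and 650 CPM in the control libraries (-0.35 ± 0.17). The 2 carriers thus stood in opposite order, without overlap in either, and the porin VDAC3 had a log2 fold change of -0.40 ± 0.16.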

How the data were processed

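RNA-seq of polyA RNA from TruSeq libraries was taken from 4 samples, 2 per group, grouped by their titles. The authors deposited raw read counts per Ensembl gene, and HISAT2, edgeR and GRCh38 are named in the submitters' processing notes. The sources used here name no counter, annotation release, strand setting or rule for shared reads. The members and gene lists were chosen with earlier results of these data known. Genes with low counts were removed with filterByExpr (minimum count 10), which left 15170 genes. The main test was edgeR 4.0.16 (R 4.3.3), quasi-likelihood with TMM factors and a Benjamini-Hochberg threshold of 0.05 across every gene tested; the common biological coefficient of variation was 21.6%. Standard errors and 95% intervals come from that fit, and fold changes are knockdown over control. The smallest p an exact permutation test could give with 2 against 2 samples is 0.333, so none was run.

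Levels are TMM-scaled CPM; levels between genes are compared per kilobase of a reference transcript (the lower median length among those of the best APPRIS class). GENCODE v29 (GRCh38) gave positions, lengths and overlaps; it includes 58542 of 60617 gene IDs, 15106 of those tested and all 90 members. Per complex, the text names the 3 members with the smallest p, the lowest and highest log2 fold change, the highest level per kilobase, catalytic and redox subunits and paralogue sets, and of each list the members past the threshold or up to 3 with the smallest p; further genes were named after their values were seen, and some that the rule or the marker lists name are not reported here. Alternatives were RLE factors, no count filter, DESeq2 1.42.0, a replicate block, GC and length corrections, and leaving out each library.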

Additional observations from a re-analysis of the deposited data

How the results depend on the processing

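The tested genes numbered 15170 in the main fit, 25916 with no count filter and between 15755 and 16194 with a library left out. The threshold was passed by 133 (0.877%) with the settings used, 207 (1.36%) with RLE factors and 304 (2.00%) with the GC correction. Of the 304, 52.0% were higher in knockdown, against 69.2% with the settings used. DESeq2 called 1362 (8.98%), and 2139 (8.25%) passed with no count filter. Leaving out a library gave between 0 and 616: 365 without knockdown replicate 1, 7 without knockdown replicate 2, 616 without control replicate 2, and 0 without control replicate 1, where edgeR's smallest adjusted p was 0.0955 and 1724 genes had an unadjusted p below 0.05. The cause was not tested. Of the 82 tested members, 0 passed, against 3 with no count filter (NDUFA4L2, COX6B2 and ATP5PO), 2 with DESeq2, and 0 with RLE factors, the GC or length corrections or any library left out. The labels give same-numbered libraries a shared number and do not state whether they were paired. Their deviations correlated at 0.20 over genes. With the replicate number as a block, 1579 genes (10.4% of those tested) and 3 members (NDUFA4L2, COX6B2 and ATP5PO) passed. In the lists, 2 of 18 assembly factors of complex I and 1 of 6 of complex III passed. So did 1 of 24 factors of complex IV and 1 of 12 genes of coenzyme Q and cytochrome c. Of the mitochondrially encoded subunits, 2 of 13 passed.

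The member median of -0.091 ranged between -0.124 and -0.042 with a library left out. The ranges were -0.193 to -0.058 for complex I, -0.223 to 0.088 for complex II, -0.142 to -0.054 for complex III, -0.110 to 0.028 for complex IV and -0.127 to -0.095 for complex V, so the signs for complexes II and IV rest on control replicate 2. With the GC correction the medians were -0.058 for complex II, -0.053 for complex III and -0.105 for complex V, and with no count filter -0.129 for complex V. Among the lists, no count filter gave 2 of 18 assembly factors of complex I and 1 of 6 of complex III. It also gave 1 of 24 factors of complex IV and 3 of 12 genes of coenzyme Q and cytochrome c. The last were 2 of 13 mitochondrially encoded subunits and 1 regulator. DESeq2 gave 1, 1, 1, 1, 2 and 0 of these, in that order. Over all tested genes the share past the threshold was 8.25% with no count filter and 8.98% with DESeq2. The GC correction gave 1 assembly factor each of complexes I and IV, against 2.00% of all tested genes. Leaving out a library gave between 0 and 1 assembly factor of complex IV, between 0 and 1 gene of coenzyme Q and cytochrome c, and between 0 and 1 mitochondrially encoded subunit. Medians of the lists ranged, with a library left out, between -0.246 and -0.126 for assembly factors of complex I, -0.386 and -0.172 for complex III, -0.177 and -0.124 for complex IV, -0.561 and -0.395 for coenzyme Q and cytochrome c, -0.073 and -0.0038 for the citric acid cycle (0.022 with the GC correction), and -0.271 and -0.164 for carriers and porins. Over 10 alternatives, 45 tested members kept their sign in every one and 37 did not; of those 37, only NDUFA7 and SDHA had a log2 fold change beyond 0.2 in size. With 2 libraries per group, a median standard error of 0.17 limits what could be called.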

Other observations

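The rows left out of the membership by name, 149 names ending in P and digits named in the manner of pseudogenes, held few counts. They summed to 221 and 310 counts in the knockdown libraries and 315 and 245 counts in the control libraries, and 27 of them had any count. COX6A1P2, a copy of COX6A1, had the most, with 94 and 128 counts in the knockdown libraries and 110 and 91 counts in the control libraries. NDUFV2P1 had 52 and 47 counts in the knockdown libraries and 57 and 63 counts in the control libraries, which was more in every library than NDUFV2 itself, with 12 and 22 counts in the knockdown libraries and 33 and 15 counts in the control libraries. Copies of SDHA were outside the name rule altogether: SDHAP1 had 222 and 208 counts in the knockdown libraries and 296 and 158 counts in the control libraries.

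Some members varied more within a group than between groups. SDHA differed by 0.12 on the log2 scale between the knockdown libraries and by 1.04 between the control libraries (replicate 2 over replicate 1). The same difference for NDUFS7 was -0.38 in knockdown and 0.57 in control, and for ATP5F1D, the delta subunit of the F1 head, -0.69 in knockdown and 0.28 in control. COX6C, a ubiquitous complex IV subunit, differed by 0.57 in knockdown and 0.21 in control. Over the 82 tested members the median of this difference was 0.003 in knockdown and 0.055 in control.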
